A study of Mus musculus with 21 samples.

Results

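The BCL-2 family genes that decide whether a cell keeps or loses its mitochondrial outer membrane were followed through 21 RNA-seq libraries of mouse brain immune cells. The 10 genes were taken from the deposited gene table by symbol, out of 45706 gene identifiers, and all 10 were found and tested. They comprise 6 survival genes (Bcl2, Bcl2l1, Mcl1, Bcl2a1a, Bcl2a1b and Bcl2a1d), the pore formers Bax and Bak1, and the BH3-only genes Bcl2l11 and Pmaip1. Male C57BL/6 mice of 17 to 24 weeks received a controlled cortical impact (CCI), a model of traumatic brain injury, or a sham craniotomy without impact. Injured mice were WT or carried Fgg γ390–396A, a knock-in change in the gamma chain gene of fibrinogen that removes the site for CD11b/CD18, an integrin of myeloid cells, and leaves clotting intact, while the sham controls were WT only. Microglia (live CD45low CD11b+ cells) came from sham controls and, for both genotypes, from mice killed at 1 d or 7 d post-CCI. The time from sham craniotomy to the sort is not given in the sources used here, and the same sham libraries were set against both days. Infiltrating myeloid cells (live CD45hi CD11b+ cells) were sorted from both genotypes at 1 d only. Each of the 7 groups had 3 libraries, and each library held the pooled cells of 2 mice, 40000 microglia or 25000 myeloid cells. Because Fgg γ390–396A sham controls were not among the samples, genotype and injury cannot be told apart when this genotype is set against sham controls. Cells were sorted on exclusion of a viability dye, so every value describes cells that were alive at the sort.

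In background terms, Bax and Bak1 proteins form the pores through which cytochrome c leaves mitochondria, after which caspases dismantle the cell. Survival proteins such as MCL-1, BCL-2, BCL-xL (from Bcl2l1) and A1 (from the Bcl2a1 genes) hold Bax, Bak1 and the BH3-only proteins in check. BH3-only proteins such as BIM (from Bcl2l11) and NOXA (from Pmaip1) sense stress and neutralise the survival proteins, NOXA with a preference for MCL-1 and A1. A1 is known as a survival protein of blood-derived cells that is induced by inflammatory signals, and MCL-1 as a short-lived protein on which many myeloid cells depend.

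The mouse has several near-identical copies of Bcl2a1, and the sequences of the 3 copies studied here are shown first because they limit how well reads can be assigned to a copy. All 3 lie on chromosome 9 of GRCm38: Bcl2a1a at chr9:88956900-88962419 on the plus strand, Bcl2a1b at chr9:89199209-89207827 on the plus strand and Bcl2a1d at chr9:88723285-88731914 on the minus strand. Their coding sequences of 519 bases each are 97.9% (Bcl2a1a and Bcl2a1b), 98.7% (Bcl2a1a and Bcl2a1d) and 98.8% (Bcl2a1b and Bcl2a1d) identical and differ at 12 positions. Below are the first 150 coding bases, all in the first of 2 exons (chr9:88957051-88957200, chr9:89199360-89199509 and chr9:88731570-88731719 in the same order), with capitals at the 7 positions where the copies differ from each other.
Bcl2a1a: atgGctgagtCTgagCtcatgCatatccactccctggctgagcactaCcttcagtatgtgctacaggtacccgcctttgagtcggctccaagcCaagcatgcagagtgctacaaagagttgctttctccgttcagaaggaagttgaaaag
Bcl2a1b: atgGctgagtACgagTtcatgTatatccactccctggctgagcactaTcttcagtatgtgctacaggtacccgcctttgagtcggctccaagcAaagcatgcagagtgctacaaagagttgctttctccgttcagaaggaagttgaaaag
Bcl2a1d: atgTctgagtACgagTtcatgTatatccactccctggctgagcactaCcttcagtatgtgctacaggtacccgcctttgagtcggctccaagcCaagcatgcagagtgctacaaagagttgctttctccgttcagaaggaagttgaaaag
Of all stretches of 31 bases in the annotated transcripts, 20.4% of those of Bcl2a1a, 26.7% of Bcl2a1b and 10.9% of Bcl2a1d occur in no other copy. Levels of a single copy are therefore uncertain, and the summed level of the 3 copies is given beside them.

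The copies also share their upstream sequence, shown here beside the coding sequences. The gene coordinates above are from GENCODE M21, and their transcript starts fall within the stretches below, which are placed by RefSeq. The stretches lie upstream of the transcript starts that RefSeq annotates on GRCm38.p6, at positions -150 to -1 for Bcl2a1a and Bcl2a1d and -194 to -45 for Bcl2a1b (chr9:88956770-88956919 on the plus strand, chr9:89199079-89199228 on the plus strand and chr9:88731851-88732000 on the minus strand), and capitals mark GAGGAAGT, the centre of the known recognition sequence of the myeloid factor PU.1.
Bcl2a1a: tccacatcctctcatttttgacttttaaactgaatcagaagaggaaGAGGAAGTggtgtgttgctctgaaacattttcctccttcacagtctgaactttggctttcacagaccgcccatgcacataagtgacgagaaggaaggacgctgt
Bcl2a1b: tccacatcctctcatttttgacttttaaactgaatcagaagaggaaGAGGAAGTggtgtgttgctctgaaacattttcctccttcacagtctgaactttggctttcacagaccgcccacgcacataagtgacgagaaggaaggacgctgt
Bcl2a1d: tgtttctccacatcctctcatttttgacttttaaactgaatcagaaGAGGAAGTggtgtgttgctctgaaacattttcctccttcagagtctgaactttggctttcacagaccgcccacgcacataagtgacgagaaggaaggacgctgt
The 8 letters, searched on both strands, occur in 3.2% of 32851 RefSeq promoter windows of 300 bases, among them 1 of Bak1. The NF-kB consensus, found in 4.51% of these windows, was searched as well. It matched 1 window of Bcl2l1, at -242, and did not match the Bcl2a1 windows. The motif was picked after these letters were seen, and a match is no evidence of binding.

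Libraries held 18896963 to 51875790 counts, of which 43.0% to 58.6% fell on ribosomal RNA genes. Levels are CPM, the count of a gene relative to the TMM-scaled total of its library, with gene length already divided out by the authors, so they can be set side by side between genes. In these units 3 counts are 0.0448 to 0.158 CPM, a limit that covers counting error only. The summed level of 10 microglial markers was 11868 to 13604 CPM in sham controls, 3470 to 5196 in WT and 5987 to 7567 in Fgg γ390–396A microglia at 1 d, and 551 to 1339 in infiltrating myeloid cells. P2ry12, a receptor of resting microglia, had medians of 4021, 357 and 727 CPM in sham, WT 1 d and Fgg γ390–396A 1 d microglia. In infiltrating myeloid cells both the 10 monocyte markers (1992 to 2413 CPM) and the 10 neutrophil markers (2767 to 13209 CPM) were high. S100a8, a gene of the neutrophil list, was alone at 1329 to 7308 CPM, and cells of either kind were not counted. In microglia the monocyte and neutrophil sums were 7.87 to 161 and 105 to 869 CPM, respectively. The sums of 10 lymphocyte markers were at most 15.2 CPM in any library. In such bulk libraries, fewer cells of a type and less RNA per cell cannot be told apart.

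In uninjured microglia Mcl1 was the most abundant of the 10 genes, at 123 ± 21.0 CPM (mean ± SD, n = 3). Bcl2a1b followed at 52.8 ± 8.84 CPM, then Bak1 at 39.2 ± 4.39 CPM. Bax (16.4), Bcl2l11 (16), Bcl2l1 (15.6) and Bcl2a1a (12.9 CPM) lay close to each other, and Bcl2 (3.28), Bcl2a1d (2.49) and Pmaip1 (1.55 CPM) were the lowest. Across the 7 groups, 8 of the 10 genes had their 2 highest means in the infiltrating myeloid cells of the 2 genotypes. Bcl2 and Bcl2l1 were the exceptions, and their neighbouring groups mostly overlapped.

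**Figure D1:**
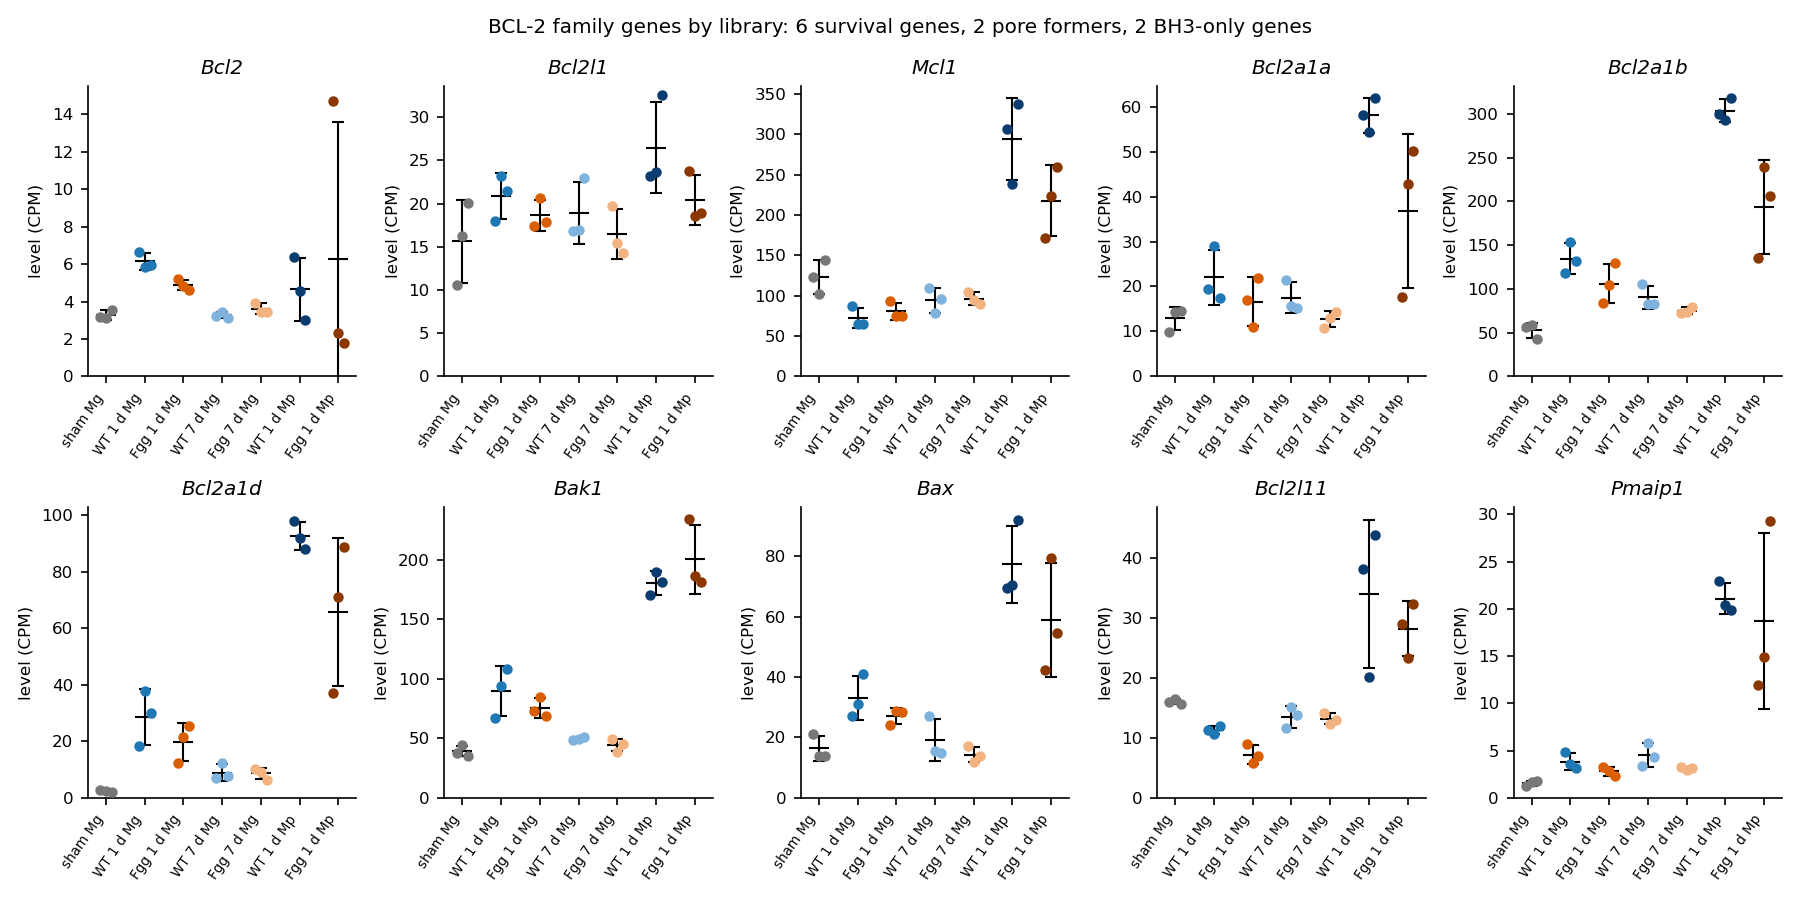
Level of each of the 10 genes (CPM, linear axes from 0, a scale of its own in each panel) in the 21 libraries. Mg is microglia, Mp infiltrating myeloid cells, points are libraries and bars are mean ± SD of 3. Bcl2a1d is near 0 in sham microglia (2.24 to 2.87 CPM) and reaches 87.9 to 97.9 CPM in WT myeloid cells. For Bcl2, 1 Fgg γ390–396A myeloid library at 14.7 CPM stands above all others, and its group's lower bar is cut at 0.

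The first question was how CCI moved these genes in WT microglia at 1 d. Here 5 of the 10 genes rose (Bcl2a1d, Bcl2a1b, Pmaip1, Bak1 and Bax) and 1 fell (Mcl1), where 10.7% of the 23815 genes tested rose and 5.97% fell (edgeR quasi-likelihood test, adjusted p under 0.05). The groups did not overlap for 7 genes that were higher and 2 that were lower, against 16.8% and 17% of all genes. The median log2 fold change of the 10 genes was 0.96 and that of all genes 0. The genes tested include many with few counts, as only 7794 besides the 10 had a mean of at least 5 CPM over the 21 libraries. Here and below, the shares and medians of all genes are therefore not matched in level to the 10 genes. The 10 monocyte markers summed to 89.5 to 161 CPM in these injured libraries and to 7.87 to 71.2 CPM in sham controls, and the microglial markers were lower, as given above. The 10 neutrophil markers overlapped, at 174 to 841 CPM in these injured libraries and 160 to 812 CPM in sham controls. The ribosomal RNA share was 43.5% to 47.9% in sham controls and 50.7% to 58.6% in WT microglia at 1 d. With ribosomal RNA genes left out 6 members were called as well, while the part of the cell type markers in the results was not tested.

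Among the survival genes, Bcl2a1d was at 2.87, 2.35 and 2.24 CPM in sham controls and at 18.2, 37.8 and 30.0 CPM in WT microglia at 1 d. All injured libraries were far above all sham libraries, an 11.5-fold rise (log2 fold change 3.53 ± 0.36 SE, adjusted p = 1.63e-06). Bcl2a1b, the copy with the most reads, went from 57.0, 58.7 and 42.6 to 118, 153 and 132 CPM (log2 fold change 1.35 ± 0.20, adjusted p = 9.14e-05). Bcl2a1a was also higher in every injured library (17.5 to 29.1 against 9.94 to 14.5 CPM), but did not pass the test (0.77 ± 0.31, adjusted p = 0.109). The sum of the copies, which does not depend on how reads were shared among them, rose 2.72-fold, from 68.2 ± 8.20 to 185 ± 32.5 CPM (log2 fold change 1.44 ± 0.21, adjusted p = 7.77e-05).

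Mcl1 moved the other way. Its levels were 123, 102 and 144 CPM in sham controls and 87.1, 65.3 and 64.4 CPM in WT microglia at 1 d, without overlap (log2 fold change -0.77 ± 0.20, adjusted p = 0.00891). The call was lost without WT 1 d replicate 2 (adjusted p = 0.0707) or replicate 3 (adjusted p = 0.0747). Bcl2, the founding member of the family, was at 5.83 to 6.64 CPM against 3.11 to 3.57 in sham controls, and Bcl2l1 at 17.9 to 23.2 against 10.6 to 20.1 CPM. Neither passed the test (adjusted p = 0.273 and 0.239), although the groups did not overlap for Bcl2. Bcl2 had the largest standard error of the 10 genes (0.52), from the fit of all libraries. Its SD was 0.252 CPM in sham controls and 0.435 CPM in WT microglia at 1 d. In myeloid cells of the knock-in mice, held in the same fit, its SD was 7.31 CPM, with 1 library at 14.7 CPM. The part of that library in the standard error was not tested. A fit of the compared groups only called Bcl2 higher at 1 d than in sham controls (0.91, adjusted p = 0.035) and lower at 7 d than at 1 d (-0.93, adjusted p = 0.0379).

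Both pore formers rose. Bak1 was at 38.0, 44.0 and 35.5 CPM in sham controls and at 67.2, 93.5 and 108 CPM in WT microglia at 1 d (log2 fold change 1.20 ± 0.17, adjusted p = 5.27e-05). Bax was at 21.1, 14.0 and 14.0 CPM and at 27, 31.1 and 40.9 CPM (1.01 ± 0.26, adjusted p = 0.0105). For both genes every injured library was above every sham library. The Bax call was lost without sham replicate 2 or 3 or WT 1 d replicate 3 (adjusted p = 0.0508 to 0.0609).

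The BH3-only genes diverged in direction. Pmaip1 was at 1.24, 1.63 and 1.78 CPM in sham controls and at 4.85, 3.55 and 3.16 CPM in WT microglia at 1 d (log2 fold change 1.31 ± 0.31, adjusted p = 0.00506). Bcl2l11 was at 15.7 to 16.4 CPM in sham controls and at 10.7 to 12 CPM after injury, without overlap, and did not pass the test (-0.50 ± 0.23, adjusted p = 0.161). The level of Bcl2l11 over that of Pmaip1 was 10.6 ± 2.11 in sham controls and 3.04 ± 0.734 in WT microglia at 1 d.

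These calls rest on TMM scaling, whose factors were highest in sham controls. With library totals alone the median log2 fold change of all well-measured genes shifted by -0.75 in this comparison, and Bak1 (0.41), Bax (0.22) and Pmaip1 (0.63) were no longer called, whereas Bcl2a1d (2.71) and Bcl2a1b (0.59) still rose and Mcl1 (-1.46) and Bcl2l11 (-1.24) fell. Ratios within a library do not depend on the scaling and are given next.

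**Figure D2:**
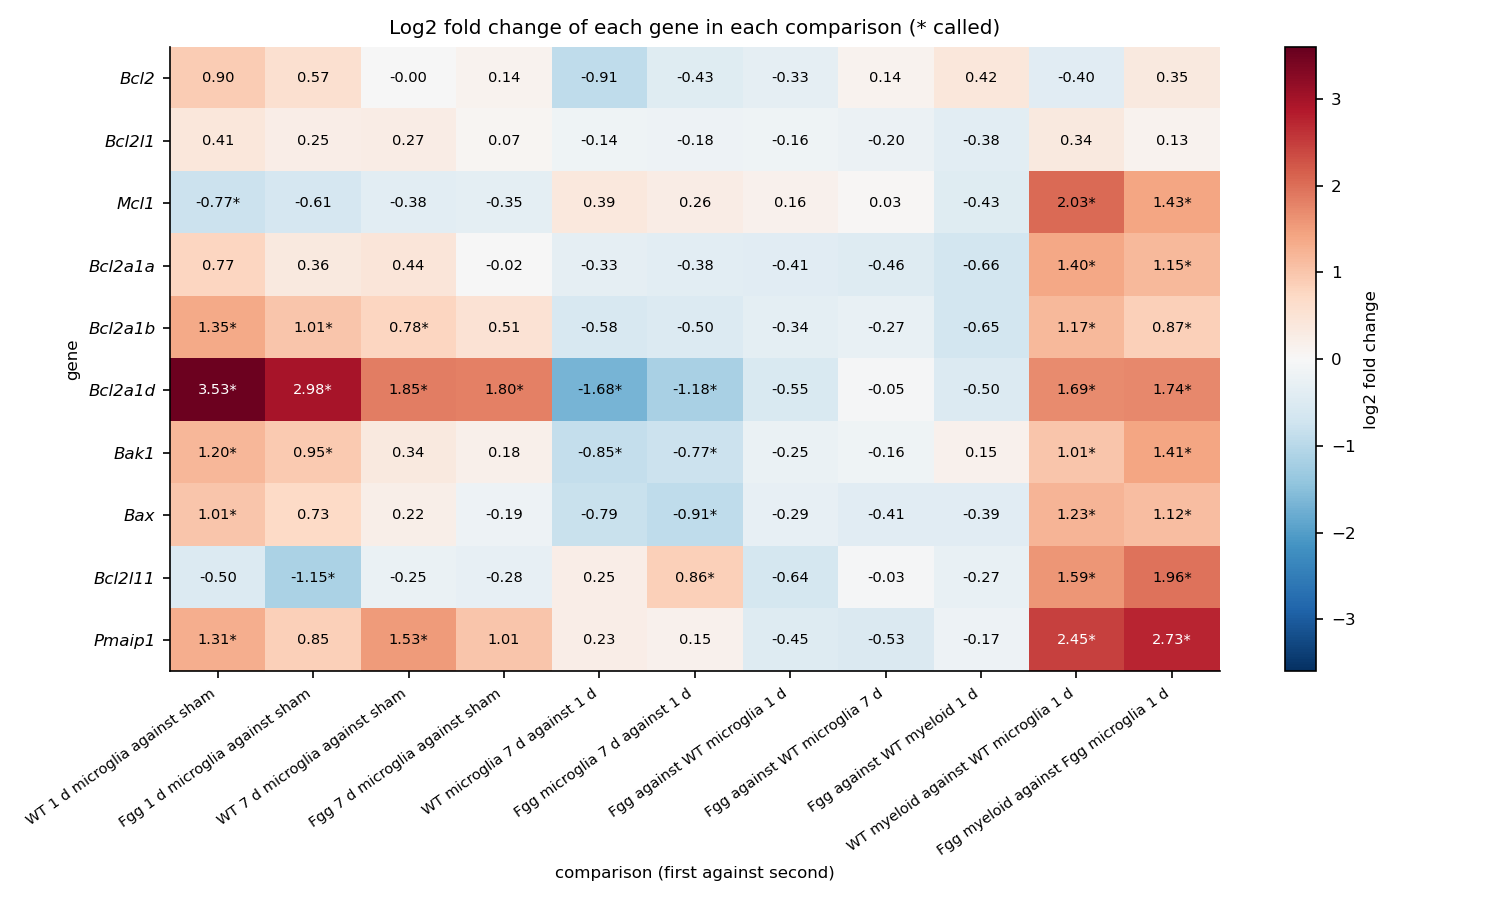
Log2 fold change of the 10 genes (rows) in the 11 comparisons (columns), from 1 edgeR fit of all libraries, with red for higher and blue for lower in the first-named group and an asterisk for a call. Calls number 36 of 110, and none falls in the 3 columns that compare genotypes.

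Mcl1 gave most of the survival-gene level in sham controls and the Bcl2a1 copies most of it in WT microglia at 1 d. Mcl1 gave 59.5%, 51.9% and 63.5% of the summed survival-gene level in the sham libraries and 32.6%, 20.8% and 23.7% in WT microglia at 1 d. The Bcl2a1 copies gave 33.8%, 38.3% and 26.1% and then 58.3%, 70.0% and 66.2%. These groups did not overlap, and the two-sided exact permutation p was 0.1 for each, the smallest that 3 libraries against 3 allow. The share of Bcl2 and Bcl2l1 together stayed between 6.66% and 11.5% in all 15 microglia libraries. The sum of the 6 survival genes was 210 ± 15.5 CPM in sham controls and 284 ± 25.9 CPM in WT microglia at 1 d, while that of Bak1 and Bax was 55.5 ± 5.24 and 123 ± 27.7 CPM. Survival genes therefore stood at 3.40 to 4.59 times the pore formers in sham libraries and at 1.82 to 2.84 times in WT libraries at 1 d. The ratio of Bak1 to Bax overlapped between these groups (1.80 to 3.14 and 2.49 to 3.01). In the 6 microglia libraries at 7 d Mcl1 gave 37.5% to 47.2% of the survival-gene level, still below every sham library, whereas survival genes over pore formers, at 3.21 to 4.15, overlapped with sham controls.

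**Figure D3:**
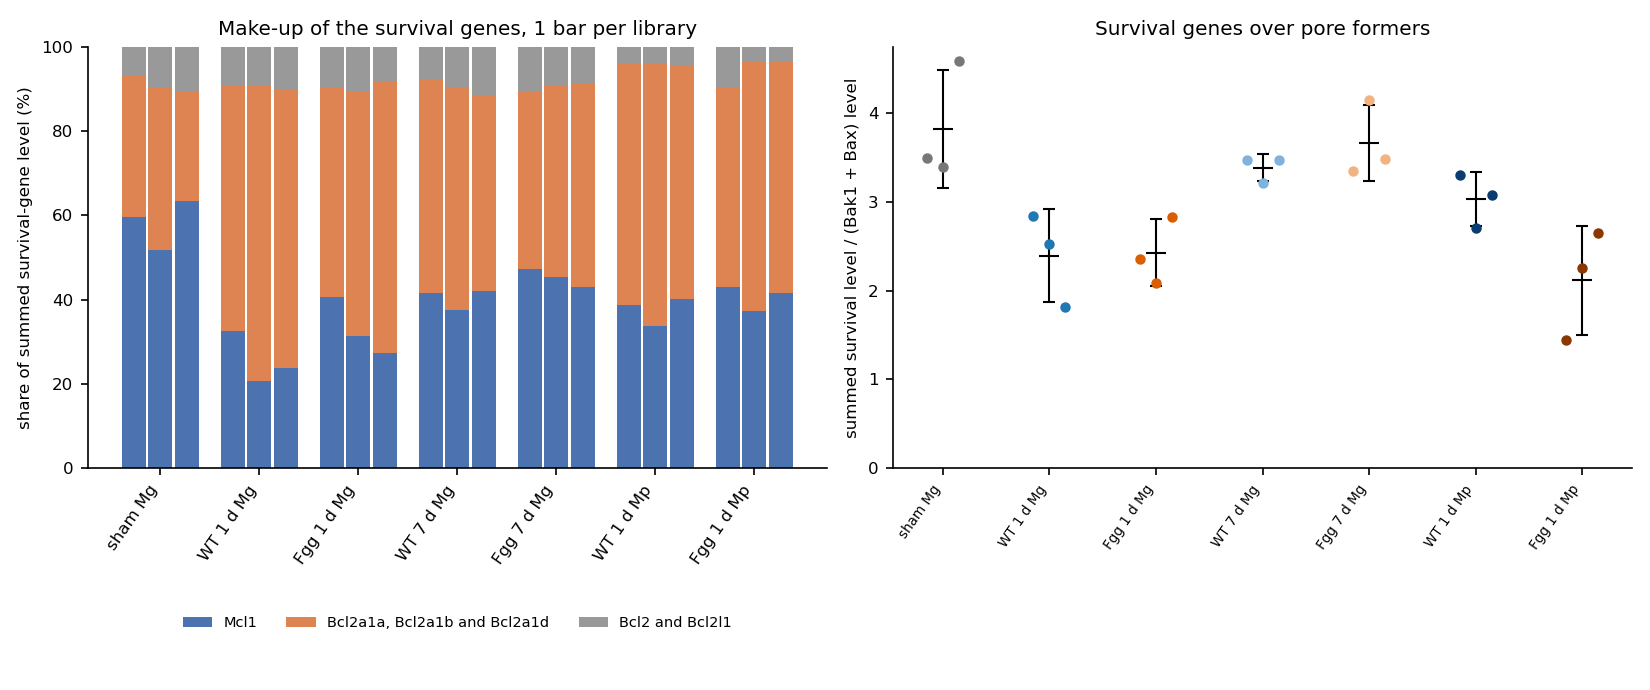
Left: share (%) of the summed level of the 6 survival genes given by Mcl1, by the 3 Bcl2a1 copies and by Bcl2 with Bcl2l1, 1 bar per library. Right: summed survival-gene level over the summed level of Bak1 and Bax, with points for libraries and bars for mean ± SD of 3. Mcl1 gives over 50% only in the sham libraries, and the ratio is 3.83 ± 0.663 in sham, 2.39 ± 0.522 in WT and 2.43 ± 0.378 in Fgg γ390–396A microglia at 1 d.

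Within the Bcl2a1 copies, Bcl2a1d gave 3.12% to 4.11% of the sum in sham controls and 11.7% to 17.2% in WT microglia at 1 d. Its share was 10.7% to 15.7% in Fgg γ390–396A microglia at 1 d, 5.19% to 11.2% in the 6 microglia libraries at 7 d, and 18.8% to 25.7% in the 6 myeloid libraries. The share of Bcl2a1b, by contrast, was 71.9% to 81.6% in sham controls and 69.6% to 75.8% in WT microglia at 1 d. The shares carry the uncertainty of read assignment stated above.

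**Figure D4:**
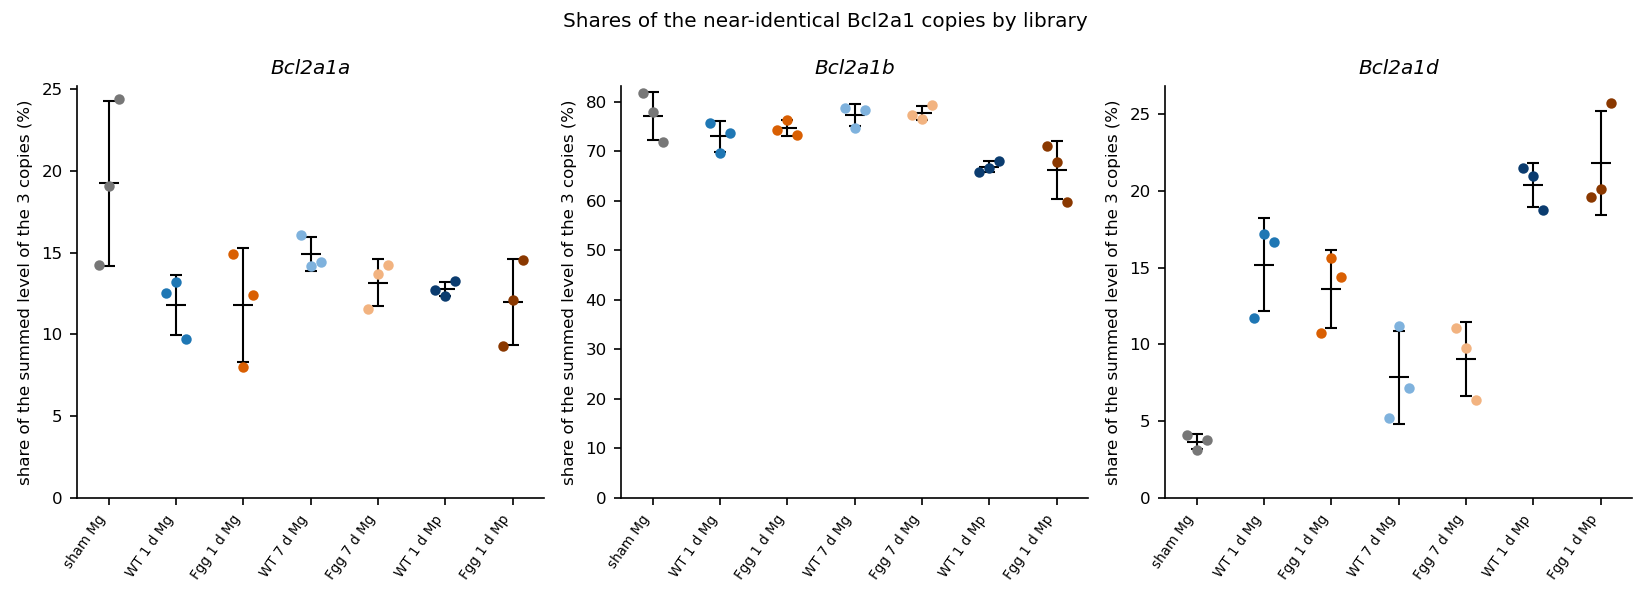
Share (%) of each Bcl2a1 copy in the summed level of the 3 copies, by library, with bars for mean ± SD of 3 and linear axes from 0. The share of Bcl2a1d is 3.67 ± 0.505% in sham microglia, 15.2 ± 3.02% in WT microglia at 1 d and 20.4 ± 1.43% in WT myeloid cells.

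In Fgg γ390–396A microglia at 1 d, set against the same sham libraries, 3 of the 10 genes rose (Bcl2a1d, Bcl2a1b and Bak1; 7.6% of all genes rose) and 1 fell (Bcl2l11; 2.19% of all genes fell). The groups did not overlap for 6 genes that were higher and 2 that were lower, against 15.7% and 13.4% of all genes. Bcl2a1d was at 12.2, 21.4 and 25.4 CPM (log2 fold change 2.98 ± 0.35, adjusted p = 1.76e-05) and Bcl2a1b at 84.5, 104 and 129 CPM (1.01 ± 0.20, adjusted p = 0.00225). Bak1 was at 73.2, 84.7 and 68.3 CPM (0.95 ± 0.17, adjusted p = 0.000883). All of these libraries were above the sham libraries. The monocyte markers summed to 37.6 to 113 CPM and the neutrophil markers to 105 to 435 CPM, both overlapping with sham controls. The microglial markers were lower, as given above, and the part of these markers was not tested.

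Bcl2l11 was at 8.92, 5.74 and 7.03 CPM in Fgg γ390–396A microglia at 1 d, below the 15.7 to 16.4 CPM of sham controls in every library (log2 fold change -1.15 ± 0.23, adjusted p = 0.00236). These were the 3 lowest of its values in all 21 libraries. Mcl1 was at 93.3, 74.3 and 74.8 CPM, also without overlap, and missed the threshold (-0.61 ± 0.20, adjusted p = 0.0565). It was called under 7 of the other settings, among them DESeq2 (-0.73, adjusted p = 0.00155) and the replicate block (-0.60, adjusted p = 0.0426). Bax (0.73, adjusted p = 0.0984) and Pmaip1 (0.85, adjusted p = 0.0952) did not overlap with sham controls and were not called. With library totals alone, Bak1 (0.53) and Bcl2a1b (0.55) lost their calls.

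At 7 d fewer genes passed the test. In WT microglia 3 of the 10 genes were called higher than in sham controls (Bcl2a1d, Bcl2a1b and Pmaip1; 2.42% of all genes were higher) and 0 lower (0.265% of all genes). The groups did not overlap for 5 genes that were higher, these 3 with Bak1 (log2 fold change 0.34) and Bcl2a1a (0.44), and for 1 that was lower, Bcl2l11 (-0.25), against 10.5% and 9.59% of all genes. Bcl2a1d was at 6.93, 12.4 and 7.61 CPM (log2 fold change 1.85 ± 0.34, adjusted p = 0.00413). Pmaip1 was at 3.34, 5.85 and 4.33 CPM (1.53 ± 0.31, adjusted p = 0.00723), and differed from the 1 d level by a log2 fold change of 0.23 ± 0.30 (adjusted p = 0.732). Its call was lost without sham replicate 1 (adjusted p = 0.0566), and with library totals alone or a fit of the compared groups only, Bcl2a1d was the only call left.

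Bcl2a1b was at 105, 82.5 and 83.2 CPM in WT microglia at 7 d (0.78 ± 0.20, adjusted p = 0.0439), but leaving out any 1 of the 6 libraries ended that call (adjusted p = 0.0753 to 0.216). In Fgg γ390–396A microglia at 7 d only Bcl2a1d was called higher than in sham controls (0.831% of all genes were higher), at 10.3, 9.29 and 6.42 CPM (1.80 ± 0.34, adjusted p = 0.0115). Here 3 genes were higher without overlap (Bcl2a1d, Bcl2a1b and Pmaip1) and 1 lower (Bcl2l11), against 8.45% and 7.2% of all genes. Without Fgg γ390–396A 7 d replicate 1, sham replicate 2 or sham replicate 3 this call was lost (adjusted p = 0.0514 to 0.0736). The Bcl2a1 sum was still above sham in every library at 7 d in both genotypes (93.5 to 134 against 59.3 to 75.5 CPM) and passed the test in neither (adjusted p = 0.0577 in WT and 0.568 in Fgg γ390–396A).

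The change from 1 d to 7 d was tested directly. In WT microglia Bak1 fell from 67.2, 93.5 and 108 CPM to 48.5, 49.7 and 50.9 CPM (log2 fold change -0.85 ± 0.17, adjusted p = 0.00235) and Bcl2a1d fell by 1.68 on the log2 scale (SE 0.33, adjusted p = 0.00216). These were 2 of 10 genes, where 6.6% of all genes were lower at 7 d, and 0 were higher (3.7% of all genes). Without WT 7 d replicate 1, Bax (-1.18) and Bcl2a1b (-0.76) were called lower as well. Mcl1, at 109, 78.7 and 95.5 CPM at 7 d, lay between its 1 d and sham levels and differed from neither in the test (adjusted p = 0.257 and 0.459).

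In Fgg γ390–396A microglia 3 genes were lower at 7 d than at 1 d (Bak1, Bax and Bcl2a1d; 4.56% of all genes) and 1 was higher (Bcl2l11; 1.08% of all genes). Bak1 was at 49.1, 38.5 and 45.6 CPM at 7 d (-0.77 ± 0.17, adjusted p = 0.00945). Bcl2l11 was at 14.2, 12.4 and 13 CPM at 7 d, above every 1 d library (0.86 ± 0.23, adjusted p = 0.0311). Bax was at 17.1, 12 and 14.0 CPM (-0.91 ± 0.26, adjusted p = 0.0474, and 0.0612 with the replicate block). All 4 calls were lost without Fgg γ390–396A 1 d replicate 2 or 7 d replicate 2, and 1 call was left without 1 d replicate 3, 7 d replicate 1 or 7 d replicate 3.

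The comparison at the centre of the design was that of Fgg γ390–396A with WT mice. None of the 10 genes passed the test (adjusted p under 0.1) in microglia at 1 d, in microglia at 7 d or in myeloid cells at 1 d, where 0.0546%, 0.0378% and 0.495% of all genes did. An unadjusted p under 0.05 was reached by 1, 0 and 3 of the 10 genes. DESeq2 called 0, 0 and 1 of them. The shares of all genes at that unadjusted p, or called by DESeq2, are not given here, so these counts stand without a background. At 1 d Bcl2l11 was at 5.74 to 8.92 CPM in Fgg γ390–396A and 10.7 to 12 CPM in WT microglia, without overlap, and its log2 difference was -0.64 ± 0.23 (unadjusted p = 0.0118, adjusted p = 0.89). Bcl2, at 4.62 to 5.19 against 5.83 to 6.64 CPM, was the other gene without overlap. These 2 genes were lower in Fgg γ390–396A, as were 2.99% of all genes on the same criterion. With library totals alone the median gene shifted by 0.32 here, and the difference of Bcl2 was -0.02 and that of Bcl2l11 -0.30. For the other members at 1 d, log2 differences ran from -0.55 for Bcl2a1d to 0.16 for Mcl1, with standard errors of 0.17 to 0.32. For Bak1, Bax and Bcl2l1 the sign was negative with TMM and positive with library totals (0.12, 0.05 and 0.18). At 7 d, Pmaip1 (2.98 to 3.28 against 3.34 to 5.85 CPM), Bcl2a1a and Bcl2a1b were lower without overlap, as were 5.28% of all genes. The level of Bcl2l11 over that of Pmaip1 was then 4.16 to 4.32 in Fgg γ390–396A and 2.58 to 3.46 in WT microglia, without overlap (two-sided exact permutation p = 0.1). Of the 2 interactions tested, the genotype effect at 7 d less that at 1 d gave 0 members called, with 0 below an unadjusted p of 0.05 and 0 of all genes called. The genotype effect in myeloid cells less that in microglia gave 0 members, with 1 below an unadjusted p of 0.05 (Mcl1, -0.60 ± 0.28) and 0.0462% of all genes called.

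In infiltrating myeloid cells the Bcl2a1 copies were lower in Fgg γ390–396A mice without passing the test. Bcl2a1b was at 135, 239 and 206 CPM in Fgg γ390–396A and at 300, 293 and 318 CPM in WT cells, without overlap (log2 difference -0.65 ± 0.20, adjusted p = 0.218). DESeq2 called this gene (-0.63, adjusted p = 0.0438) and no other member. The sum of the copies was at 190, 353 and 345 CPM against 456, 439 and 468 CPM (-0.62 ± 0.21, adjusted p = 0.267, and 0.0745 with DESeq2). Bcl2a1a and Bcl2a1b were the 2 genes without overlap, where 4.85% of all genes were lower in the same way.

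Fgg γ390–396A myeloid replicate 1 stood apart for several of the genes. It had the lowest level of the 6 myeloid libraries for Mcl1 (171 CPM), for all 3 Bcl2a1 copies (17.6, 135 and 37.2 CPM), for Bax (42.3 CPM) and for Pmaip1 (11.9 CPM), and the highest for Bak1 (234 CPM) and Bcl2 (14.7 CPM). Its neutrophil markers summed to 2767 CPM, the lowest of the 6, and its monocyte markers to 2413 CPM, the highest; their part in the result was not tested. Without it the log2 difference of Bcl2a1b was -0.39 (adjusted p = 0.426), that of the Bcl2a1 sum -0.33 and that of Bcl2 -1.12 (adjusted p = 0.108), in place of 0.42 for Bcl2 with all libraries.

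Infiltrating myeloid cells differed from microglia of the same genotype and day in most of the family. In WT mice 8 of the 10 genes were higher (7.56% of all genes were) and 0 lower (8.12% of all genes), and in Fgg γ390–396A mice 8 were higher (9.33% of all genes) and 0 lower (12.1% of all genes). The median log2 fold change of the 10 genes was 1.31 and 1.28, and that of all genes 0 and -0.13. The called genes were the same in both genotypes, all but Bcl2 and Bcl2l1. Bcl2a1a of Fgg γ390–396A mice overlapped between the cell types, and its call was lost with the compared groups only (adjusted p = 0.0831), without microglia replicate 2 (0.0661) or without myeloid replicate 3 (0.0666). With library totals alone Bax, Bcl2a1a and Bcl2a1b lost their calls there.

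Mcl1 was at 307, 238 and 338 CPM in WT myeloid cells against 64.4 to 87.1 CPM in microglia, a 4.07-fold difference (log2 fold change 2.03 ± 0.20, adjusted p = 1.08e-06). In Fgg γ390–396A mice it was at 171, 223 and 259 against 74.3 to 93.3 CPM (1.43 ± 0.20, adjusted p = 3.32e-05). All 6 myeloid libraries were also above the 3 sham microglia libraries (102 to 144 CPM). The Bcl2a1 sum was at 439 to 468 CPM in WT myeloid cells (1.30 ± 0.21 over microglia, adjusted p = 0.000248) and at 190 to 353 CPM in Fgg γ390–396A cells (1.06 ± 0.21, adjusted p = 0.00127).

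Pmaip1 showed the largest fold of the 10 genes in both genotypes. It was at 22.9, 20.4 and 19.8 CPM in WT myeloid cells against 3.16 to 4.85 CPM in microglia (log2 fold change 2.45 ± 0.31, adjusted p = 1.46e-05), and 2.73 ± 0.31 higher in Fgg γ390–396A mice (adjusted p = 3.88e-06). Bcl2l11 was at 38.1, 20.1 and 43.7 CPM (1.59 ± 0.23, adjusted p = 7.88e-05) and in Fgg γ390–396A mice at 28.9, 23.3 and 32.3 CPM (1.96 ± 0.24, adjusted p = 7.19e-06). Bak1 was at 170, 190 and 181 CPM in WT and 234, 186 and 181 CPM in Fgg γ390–396A myeloid cells (1.01 ± 0.17 and 1.41 ± 0.17 over microglia). Bax was at 69.4 to 92.0 and 42.3 to 79.4 CPM (1.23 ± 0.26 and 1.12 ± 0.26).

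Bcl2 and Bcl2l1 gave 3.72% to 4.22% of the survival-gene sum in WT myeloid cells and 9.19% to 10.1% in WT microglia at 1 d, without overlap (two-sided exact permutation p = 0.1, the smallest possible). The same share in Fgg γ390–396A mice was 3.31% to 9.63% and 8.20% to 10.8%, with overlap (exact permutation p = 0.2). The Mcl1 share was higher in WT myeloid cells than in WT microglia without overlap (p = 0.1, exact permutation) and overlapped in Fgg γ390–396A mice, and the Bcl2a1 share overlapped between the cell types in both genotypes. Survival genes over pore formers were at 2.71 to 3.31 in WT myeloid cells and at 1.45 to 2.65 in Fgg γ390–396A myeloid cells. The difference (Fgg γ390–396A less WT) was -0.918 without overlap (two-sided exact permutation p = 0.1), and the value of 1.45 came from replicate 1. Neutrophil marker sums differed widely among the WT myeloid libraries (3544 to 13209 CPM), and the part of neutrophils in the differences between gates was not tested. Without Fgg γ390–396A myeloid replicate 1, Bcl2 was called lower in myeloid cells than in microglia of that genotype (-1.13, adjusted p = 0.0132), while with all libraries its value was 0.35.

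Other genes of the mitochondrial death pathway were taken from a list of 27, of which 25 were tested. Bcl2l10 and Hrk held 0 and 1 counts over all libraries. In WT microglia at 1 d 2 of the 25 rose and 3 fell, where 10.7% and 5.97% of all genes did. Cycs, which encodes cytochrome c, went from 11.2, 17 and 13.2 CPM in sham controls to 42.9, 54.2 and 60.0 CPM (log2 fold change 1.92 ± 0.26, adjusted p = 2.42e-05). Bmf, a BH3-only gene, went from 13.2, 14.6 and 18.6 to 5.88, 2.53 and 1.91 CPM (-2.17 ± 0.39, adjusted p = 0.000472). Bid, whose protein links death receptors to Bax and Bak1, went from 15.7, 20.8 and 19 to 10.5, 9.26 and 10.3 CPM (-0.89 ± 0.24, adjusted p = 0.0134).

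In Fgg γ390–396A microglia at 1 d the same test called 2 of the 25, Cycs higher (1.49 ± 0.25, adjusted p = 0.000537) and Bmf lower (-1.24 ± 0.38, adjusted p = 0.0414), where 7.6% of all genes were higher and 2.19% lower. At 7 d 0 of the 25 were called against sham controls in either genotype. Of all genes, 2.42% were higher and 0.265% lower in WT, and 0.831% were higher in Fgg γ390–396A mice. Below an unadjusted p of 0.05 were 2 of the 25 in WT and 0 in Fgg γ390–396A mice, with no share of all genes given for it. From 1 d to 7 d Cycs fell in WT (-1.84 ± 0.26, adjusted p = 9.99e-05) and in Fgg γ390–396A microglia (-1.62 ± 0.25, adjusted p = 0.000634), and Bmf rose in WT microglia (1.49 ± 0.38, adjusted p = 0.0142). Between genotypes 0 of the 25 were called in each of the 3 comparisons, where 0.0546%, 0.0378% and 0.495% of all genes were.

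In WT myeloid cells 6 of the 25 were above microglia, while in Fgg γ390–396A mice 5 were above and 1 below. The shares of all genes called higher were 7.56% in WT and 9.33% in Fgg γ390–396A mice, and 12.1% were called lower in the latter. Bnip3, a mitophagy gene induced by hypoxia, had the smallest adjusted p in both (log2 fold change 1.95 ± 0.28 and 1.85 ± 0.28), at 41.4 to 101 CPM in WT myeloid cells against 15.7 to 24.1 CPM in microglia. Birc3, an inhibitor-of-apoptosis gene, followed (1.70 ± 0.26 and 1.41 ± 0.26). Next came Xiap, a caspase inhibitor, in WT mice (0.62 ± 0.17) and, in the opposite direction, Bmf in Fgg γ390–396A mice (-1.83 ± 0.39).

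**Figure D5:**
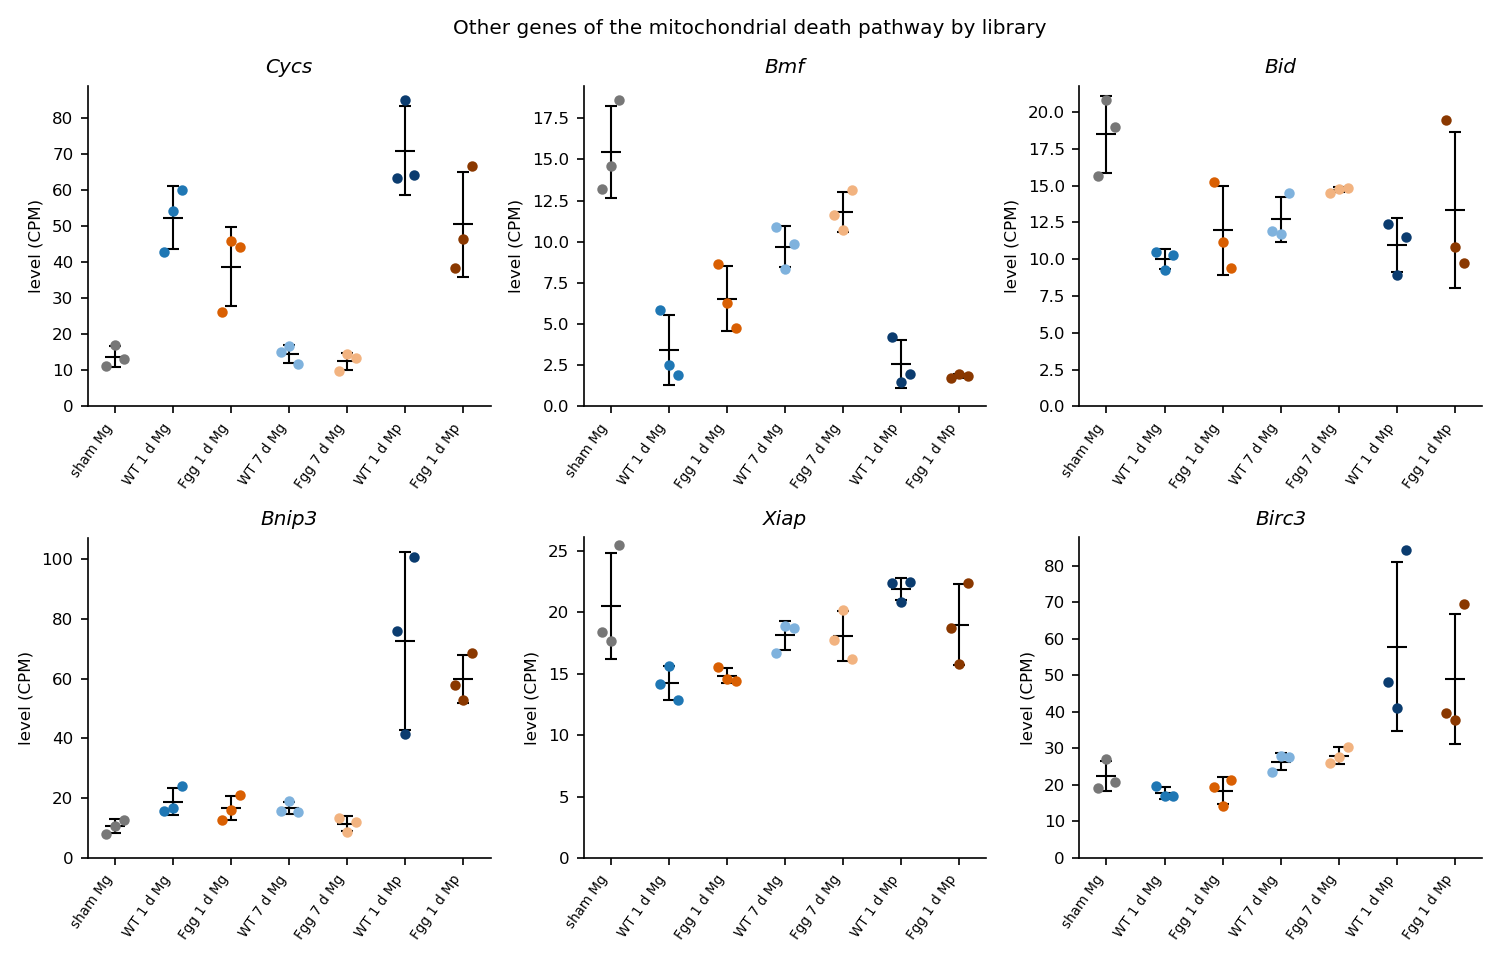
Level (CPM, linear axes from 0) of 6 further genes of the pathway in the 21 libraries, with points for libraries and bars for mean ± SD of 3. Cycs is at 42.9 to 60.0 CPM in WT microglia at 1 d against 11.2 to 17 CPM in sham microglia, and Bmf at 1.91 to 5.88 against 13.2 to 18.6 CPM.

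Across the 21 libraries, which share 7 group means, the log2 levels of Bcl2a1b and Bcl2a1d were correlated at Pearson's r = 0.96, those of Bcl2a1a with the same genes at 0.91 and 0.82, Bcl2a1b and Bax at 0.94, Bcl2a1d and Bak1 at 0.92, Bax and Bak1 at 0.92 and Mcl1 and Bcl2l11 at 0.89, while r between Bcl2 and any other member was at most 0.29. Among 7794 genes with a mean of at least 5 CPM, the nearest patterns were those of Cdkn1a (r = 0.98), Ccl2 and Tpm4 for Bcl2a1d. For Bcl2a1b they were Ndufa7 (0.97), Myl6 and Plaur, and for Bcl2a1a Skap2 (0.94), Usb1 and Atp6v1e1. Mcl1 was followed by Fem1c (0.97), Malt1 and Snx10, and Bcl2l11 by Klf6 (0.92), Lgals8 and St8sia4. Bak1 was nearest to Prelid1 (0.98), Clic1 and Arf1, Bax to Tmem189 (0.97), Mrpl33 and Card19, and Pmaip1 to Hif1a (0.97), Mfsd6 and Nampt. These correlations are descriptions over libraries of 2 cell types and 2 genotypes, with no test.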

How the data were processed

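RNA-seq of 21 libraries (7 groups of 3) was read from the deposited gene table. The authors trimmed the reads and ran nf-core/rnaseq with salmon quantification against GRCm38. They deposited expected counts scaled so that gene length is divided out and each library sums to its mapped reads, with no normalization between libraries. The labels name R 4.2.0 and DESeq2 1.36.0, and the annotation release is not given in the sources used here. Identifiers were matched to GENCODE M21 (45143 of 45706 matched). Rounded values were fitted by edgeR 4.0.16 under R 4.3.3 (TMM, glmQLFit, glmQLFTest, Benjamini-Hochberg adjustment) in 1 fit with 1 mean per group, over 23815 genes with at least 5 counts in all. Calls needed an adjusted p under 0.05, or 0.1 between genotypes, with no bar on the fold change. Standard errors follow from the fold change and its F statistic. DESeq2 1.42.0 was an alternative. Shares and ratios were compared with two-sided exact permutation tests, and p-values measure the spread between pools of mice.

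All 10 members were named in every comparison, as were up to 3 further pathway genes with the smallest adjusted p among those called, and the 3 genes nearest in pattern to each called member. Members and lists were chosen with earlier results of these data known. No 2 libraries of a group agreed within counting noise. The replicate numbers do not mark a shared origin in the labels. Deviations of same-numbered libraries correlated over 0.1 in all 3 pairs only between genotypes in microglia at 1 d (0.104 to 0.372), where the block called 0 members as well.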

Additional observations from a re-analysis of the deposited data

How the results depend on the processing

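No called member changed direction under any alternative. Leaving out 1 library at a time, members called numbered 0 to 1 in Fgg γ390–396A 7 d microglia against sham, 1 to 2 in WT 7 d against sham (1 without sham replicate 1), 2 to 4 in WT 7 d against 1 d (4 without WT 7 d replicate 1) and 0 to 4 in Fgg γ390–396A 7 d against 1 d, and the Bcl2a1 sum in WT 7 d against 1 d ran from -0.83 to -0.58. With the fold-change bars of the study (absolute log2 fold change above 1.5 for WT 1 d against sham, above 1 elsewhere) 1 member each was left in WT 1 d against sham, WT 7 d against 1 d and Fgg γ390–396A 7 d against 1 d, and the Bcl2a1 sum in WT 1 d (1.44) missed the bar. Library totals without TMM factors, added after the data were seen, left 1 member in WT 7 d against sham, 1 in Fgg γ390–396A 7 d against 1 d and 5 in Fgg γ390–396A myeloid cells against microglia, and the Bcl2a1 sum in Fgg γ390–396A 1 d against sham fell to 0.61 (adjusted p = 0.0804). DESeq2 size factors in edgeR, which shifted the median gene by at most 0.13, left 2 in Fgg γ390–396A 7 d against 1 d, and a fit of the compared groups only left 1 in WT 7 d against sham. DESeq2 called 1 member in Fgg γ390–396A against WT myeloid cells and the Bcl2a1 sum there (-0.60). The sum in WT 7 d against sham was called by DESeq2 (0.76), filterByExpr (0.78) and the compared groups only (0.79), and in WT 7 d against 1 d by the same (-0.58, -0.64 and -0.69). The cause of these moves was not tested. The shares of all genes called under an alternative are not given in any section. Counts of members under alternatives therefore stand without a background.

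With the replicate number as a block, 5 members were called in Fgg γ390–396A 1 d against sham and 3 in Fgg γ390–396A 7 d against 1 d, where Bax was lost, and other counts were the same. Over all groups 6 of 63 same-numbered pairs were over 0.1, among them 2 of 3 between WT myeloid cells and WT microglia at 1 d (highest 0.166). Whether same-numbered libraries share an origin cannot be told from such weak correlations. The labels do not say whether microglia and myeloid cells came from the same pools, and the main fit treated them as unpaired. At this depth 3 counts are at most 0.158 CPM, below the lowest member level of 1.24 CPM (Pmaip1 in sham controls).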
